A study of Mus musculus with 4 samples.

Results

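The transforming growth factor beta (TGF-beta) and bone morphogenetic protein (BMP) genes were described by their chromatin accessibility in aged long-term hematopoietic stem cells (LT-HSCs). The 10 genes were the ligand Tgfb1, the signalling receptors Tgfbr1, Tgfbr2 and Bmpr2, the co-receptors Tgfbr3 and Eng, the receptor-activated SMADs Smad1 and Smad3, and the inhibitory SMADs Smad6 and Smad7. Their members in the data were the peaks (regions of open chromatin) that overlapped the gene body or the 5000 bp upstream of it on GRCm38. This gave 107 of the 93513 peaks of the table, of which 11 were promoter peaks, lying within 1000 bp of a protein-coding transcript start of the gene, and 96 were other peaks.

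Single-cell ATAC-Seq, in which the transposase Tn5 cuts accessible DNA and each cut is counted, was performed on LT-HSCs (LSK CD34neg CD135neg bone marrow cells) of C57BL/6JRj mice, in 4 samples of 1 group each. The table used here is named in the labels of 2 samples from mice aged 22 to 28 months, CLCA3A1high and CLCA3A1low cells, which were split by an antibody against the surface protein CLCA3A1. Each sample pooled 2500 cells from each of 4 mice, giving 10000 sorted cells, so no value of a single mouse exists. The samples of young mice aged 3 to 4 months and of old mice aged 22 to 28 months were not analysed here, because the rows of the second table carry no peak names.

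The cells of the table carry barcode suffix 1 or 2, called barcode set 1 and barcode set 2. No label ties a suffix to a sample, so a ratio of set 1 over set 2 compares these sets and has no direction between CLCA3A1high and CLCA3A1low cells. Set 1 held 818 cells and 13050952 counts and set 2 held 636 cells and 9820094 counts, with medians of 13358.5 and 12755 counts per cell, and the sets shared 0 barcode sequences. Levels are given as counts per 1e6 counts of the set's total (CPM) and as the share of cells with a count in the region ("open" cells). Cells are not replicates and each set is 1 library, so no p-value is given. The 95% intervals are exact Poisson, Clopper-Pearson or conditional binomial intervals and cover counting error only. Since 90.5% of the values above 0 in these peaks were even, a fragment having 2 cut ends, the intervals are also too narrow. A region is called past 1.5-fold when it had at least 20 counts and its CPM, each with a pseudocount of 1 CPM, differed by 1.5-fold or more. The log2 ratios printed with intervals carry no pseudocount.

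In this pathway, a dimeric ligand brings together type II and type I receptor kinases, and the type I receptor then phosphorylates receptor-activated SMADs, which enter the nucleus with Smad4 and bind DNA. Smad3 carries TGF-beta and activin signals, Smad1 carries BMP signals, and Smad6 and Smad7 are inhibitory SMADs that are themselves induced by the pathway. In bone marrow, TGF-beta made active in the niche is known for holding HSCs in quiescence.

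The sequences of the non-promoter peaks past 1.5-fold that carried the most counts are shown first, because they carry the largest counts among the regions that differed between the sets. Each is the central 300 bases of a peak, all in introns, read from the plus strand of GRCm38, while Smad3, Tgfbr3 and Tgfbr2 are transcribed from the minus strand. Capitals mark matches to the searched words on either strand, here TGANTCA, the AP-1 word, and TGTGGTT, the RUNX word, which reads AACCACA on the opposite strand. The printed Smad3 stretch held the AP-1 word from base 101 and the RUNX word from base 283, counted from the 5′ end, and the other printed stretches held none of the 9 words. Over their whole width, however, the peaks Tgfbr3 chr5:107200065-107202109 and Tgfbr2 chr9:116160153-116161459 each held both words, so these words were not particular to the Smad3 peak. The Tgfbr2 peak and the other Tgfbr3 peak also held the GATA word AGATAAG.
Smad3 intron, chr9:63737985-63738284: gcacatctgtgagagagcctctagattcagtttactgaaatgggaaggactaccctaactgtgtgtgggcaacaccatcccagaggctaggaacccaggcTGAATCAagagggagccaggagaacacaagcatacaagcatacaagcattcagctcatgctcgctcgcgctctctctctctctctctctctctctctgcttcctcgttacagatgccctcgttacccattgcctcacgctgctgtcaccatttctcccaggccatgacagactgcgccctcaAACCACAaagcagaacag
Tgfbr3 intron, chr5:107200938-107201237: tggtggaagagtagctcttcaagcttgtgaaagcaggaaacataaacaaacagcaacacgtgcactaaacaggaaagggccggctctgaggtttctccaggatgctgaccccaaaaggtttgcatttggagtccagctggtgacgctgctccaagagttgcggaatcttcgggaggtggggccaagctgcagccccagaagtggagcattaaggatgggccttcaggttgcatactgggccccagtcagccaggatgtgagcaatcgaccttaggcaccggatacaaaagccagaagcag
Tgfbr2 intron, chr9:116160657-116160956: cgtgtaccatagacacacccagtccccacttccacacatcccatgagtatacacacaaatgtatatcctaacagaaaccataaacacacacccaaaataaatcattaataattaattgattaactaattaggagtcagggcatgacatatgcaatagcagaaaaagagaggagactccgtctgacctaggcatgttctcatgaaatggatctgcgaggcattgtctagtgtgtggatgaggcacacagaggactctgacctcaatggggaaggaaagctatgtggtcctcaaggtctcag
Tgfbr3 intron, chr5:107237277-107237576: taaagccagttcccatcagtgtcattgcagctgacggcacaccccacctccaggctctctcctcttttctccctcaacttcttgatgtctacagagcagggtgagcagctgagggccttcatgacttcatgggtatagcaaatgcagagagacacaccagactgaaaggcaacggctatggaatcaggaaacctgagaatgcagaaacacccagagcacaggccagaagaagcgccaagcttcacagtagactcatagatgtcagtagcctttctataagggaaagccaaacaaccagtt

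The promoters of Eng, Tgfbr1 and Tgfb1 are shown as those with the largest promoter ratios between the sets among the 8 genes with a RefSeq promoter entry (GRCm38.p6), leaving out Bmpr2, whose window overlaps an annotated exon. Tgfbr3 and Smad7 had no entry. Each is the 250 bases upstream of the RefSeq start, on the plus strand, from which these genes are transcribed. Capitals mark GGCGCC (a GC-rich SMAD word) in Tgfbr1 from base 18, the PU.1 word GAGGAAGT on the opposite strand in Eng from base 198, and the SP and KLF word GGGGCGGGG on the opposite strand in Tgfb1 from base 182. Over all 32851 RefSeq promoter entries, windows of the same kind held these words in 9.59%, 2.44% and 10.4%.
Eng promoter, chr2:32646345-32646594: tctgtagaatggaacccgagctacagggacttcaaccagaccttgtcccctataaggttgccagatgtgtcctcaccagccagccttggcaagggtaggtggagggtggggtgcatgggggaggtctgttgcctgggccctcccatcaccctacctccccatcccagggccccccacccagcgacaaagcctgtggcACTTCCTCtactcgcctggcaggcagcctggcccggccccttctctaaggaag
Tgfbr1 promoter, chr4:47352972-47353221: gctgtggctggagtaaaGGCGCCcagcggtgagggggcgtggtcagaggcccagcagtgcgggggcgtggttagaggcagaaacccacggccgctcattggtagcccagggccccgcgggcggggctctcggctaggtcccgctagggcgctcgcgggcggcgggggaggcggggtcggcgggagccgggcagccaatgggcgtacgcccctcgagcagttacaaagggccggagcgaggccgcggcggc
Tgfb1 promoter, chr7:25686752-25687001: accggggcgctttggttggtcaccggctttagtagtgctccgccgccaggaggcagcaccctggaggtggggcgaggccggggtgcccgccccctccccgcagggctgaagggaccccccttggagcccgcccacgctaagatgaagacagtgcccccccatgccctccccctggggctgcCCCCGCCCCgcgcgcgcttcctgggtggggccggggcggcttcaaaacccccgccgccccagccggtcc

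All 10 loci were open in both sets. The peaks of the 10 genes together took 1282 CPM in set 1 and 1307 CPM in set 2, or 0.129% of all counts, and the log2 ratio of these sums was -0.03 (95% interval -0.06 to 0.01). The promoter peaks summed to 562.8 and 563.6 CPM and the other peaks to 718.9 and 743.3 CPM. Among the loci, 1 of 10 (Tgfbr3) was past 1.5-fold with set 1 higher and 0 of 10 with set 2 higher, where 4.63% and 3.61% of 16911 protein-coding loci were. The median log2 ratio of the 10 loci was -0.01, and that of all loci 0.0038. The 10 genes together thus took near equal shares of the counts of both sets.

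**Figure D1:**
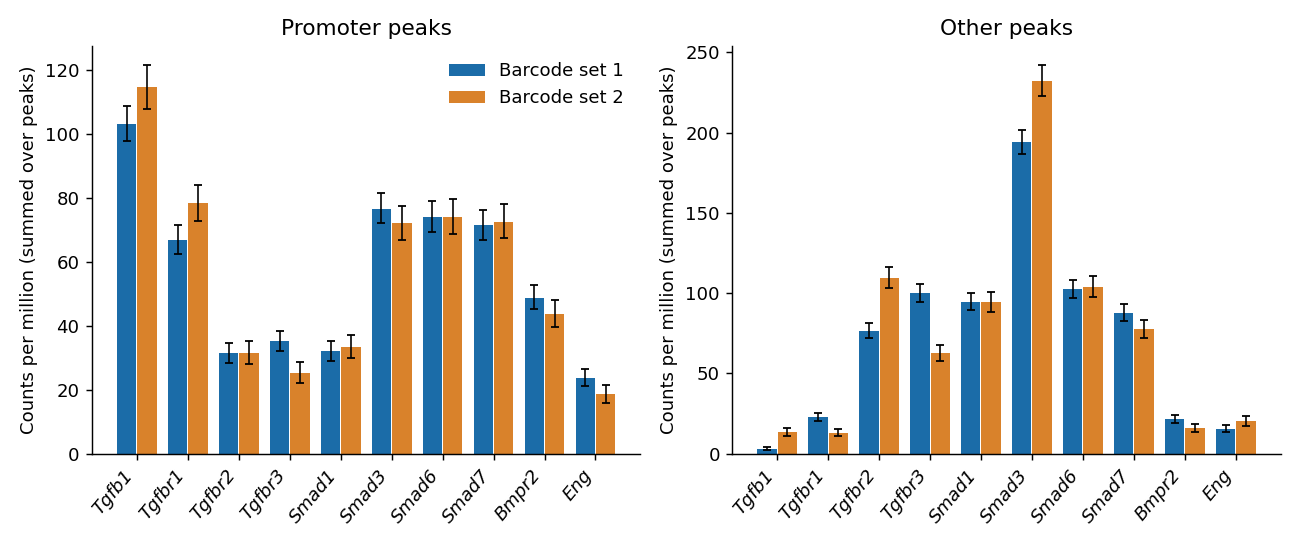
Summed accessibility of each gene's promoter peaks (left) and other peaks (right) in barcode set 1 (blue) and set 2 (orange), in CPM; bars start at 0 and error bars are 95% Poisson intervals. The Tgfbr3 bars were taller in set 1 in both panels (35.1 against 25.3 CPM at the promoter), whereas the other peaks of Tgfbr2 and Smad3 were taller in set 2.

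Of the 107 peaks, 5 had 0 counts, all of them intronic peaks under 50 bp wide, and 88 had at least 20 counts. Past 1.5-fold, 14 of the 88 were higher in set 1 and 9 were higher in set 2, or 15.9% and 10.2%, against 14.8% and 15.3% of all 79625 peaks with that many counts. Of the 11 promoter peaks, 1 was higher in set 1 and 0 in set 2, against 6.17% and 5.11% of all promoter peaks. Of the 77 other peaks, 13 were higher in set 1 and 9 in set 2, against 17.0% and 17.9% of all other peaks. These shares lay near the background for set 1 and below it for set 2, so the count of changed peaks is not itself a result about these genes. By gene, 7 of the 12 tested Tgfbr3 peaks were higher in set 1, and 3 of 12 Tgfbr2 peaks and 3 of 19 Smad3 peaks (15.8%) were higher in set 2, the Smad3 share being near the background. Peaks just past the threshold included Tgfbr3 chr5:107236541-107238311 (0.60 on the pseudocount scale), and peaks just short of it included Smad3 chr9:63715992-63716688 (0.53) and Bmpr2 chr1:59830025-59830693 (0.53).

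**Figure D2:**
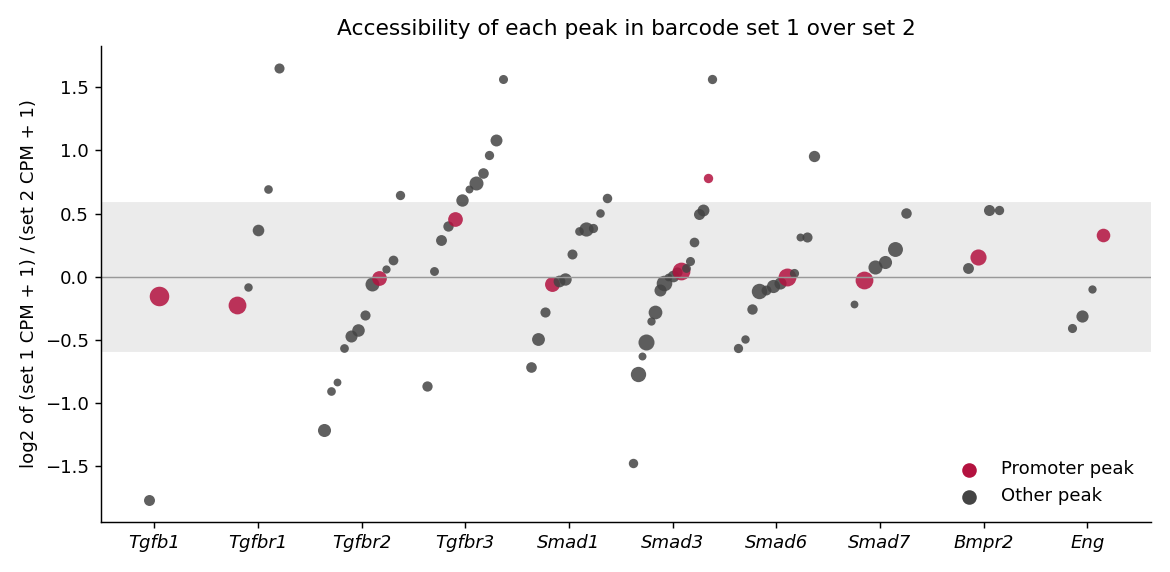
log2 ratio of set 1 over set 2, with a pseudocount of 1 CPM, for each of the 88 peaks with at least 20 counts, sorted within each gene; red points are promoter peaks, point area grows with the square root of the counts, and the grey band spans 1.5-fold in either direction. Promoter peaks sat inside the band except for 1 small Smad3 peak, while 7 Tgfbr3 points lay above the band and 1 below it.

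Tgfb1 encodes the TGF-beta1 ligand, which is secreted in a latent form. Its promoter peak (chr7:25686069-25690601) was the most open per cell of the 10 promoters, with 103.1 CPM in set 1 and 114.5 CPM in set 2, and 47.3% and 48.6% of cells open. The ratio was -0.15 (-0.27 to -0.04), and it was -0.10 (-0.32 to 0.12) when each cell was counted once. Its only other peak, chr7:25683153-25684172, centred at -3340 bp from the start, had 42 counts in set 1 and 131 in set 2, or 3.22 and 13.3 CPM, a ratio of -2.05 (-2.59 to -1.54), and was open in 2.44% and 8.65% of cells. Set 2 thus held more counts there although set 1 had more cells and more counts in all. Both peaks also overlap the neighbouring gene B9d2, so they cannot be assigned to Tgfb1 alone. With both peaks summed, the locus stood at 106.3 CPM in set 1 and 127.8 CPM in set 2.

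Tgfbr1, the type I receptor for TGF-beta, had its promoter peak at chr4:47351373-47354410, with 66.8 CPM in set 1 and 78.3 CPM in set 2 (-0.23, -0.37 to -0.09). Its other 4 peaks with at least 20 counts went the opposite way in sum, at 22.8 and 13.1 CPM (0.79, 0.49 to 1.102). Most of this came from an intronic peak 21640 bp inside the gene, chr4:47374589-47375136, with 95 counts in set 1 and 16 in set 2. It was open in 5.75% of set 1 cells and 1.26% of set 2 cells, a ratio of 2.16 (1.39 to 3.02), the largest with set 1 higher among the peaks with at least 100 counts. The largest other peak, chr4:47399753-47400728 in an intron, had 11.2 and 8.45 CPM (0.40, 0.01 to 0.81), and 0.23 (-0.34 to 0.82) with each cell counted once. In summed counts over all cells, promoter and intron thus offset each other, and the whole locus stood at 89.6 CPM in set 1 and 91.4 CPM in set 2. With each peak counted once per cell, the promoter interval held 0 (-0.21, -0.45 to 0.04), while the other peaks in sum stayed higher in set 1 (0.72, 0.29 to 1.16). At equal depth the ratio of the locus was -0.17.

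Tgfbr2, the type II receptor that binds TGF-beta, had an even promoter. Its promoter peak (chr9:116174064-116176290) had 31.3 CPM in set 1 and 31.5 CPM in set 2 (-0.01, -0.22 to 0.21), open in 19.2% of the cells of each set. The remaining 20 peaks were higher in set 2 in sum, with 76.6 and 109.6 CPM (-0.52, -0.64 to -0.39), and 40.6% and 48.0% of cells open. The intronic peak chr9:116160153-116161459, 14554 bp inside the gene, had 143 counts in set 1 and 262 in set 2, or 10.96 and 26.7 CPM, and was open in 8.07% and 14.8% of cells. Its ratio of -1.28 (-1.59 to -0.98) became -0.94 (-1.41 to -0.47) when each cell was counted once. The largest other peak, chr9:116083589-116085140 over the 3′ UTR, was near even at 24.0 and 24.9 CPM (-0.06, -0.30 to 0.19). Set 2 was higher at both other intronic peaks with over 200 counts, chr9:116122575-116123910 (-0.45, -0.77 to -0.14) and chr9:116144980-116145854 (-0.50, -0.86 to -0.15), but neither was past 1.5-fold. With each cell counted once, the interval of the former held 0 (-0.27, -0.75 to 0.21), and the latter was -0.61 (-1.14 to -0.08). The small intronic peaks past 1.5-fold included 1 in the opposite direction, chr9:116091889-116092399, with 51 and 21 counts, and with each cell counted once its interval held 0 (0.76, -0.32 to 1.93).

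Bmpr2, the type II receptor of BMP ligands, had 5 peaks and none past 1.5-fold. Its promoter peak (chr1:59762188-59765417) had 48.8 CPM in set 1 and 43.8 CPM in set 2 (0.16, -0.02 to 0.34), and 24.8% and 23.9% of cells were open. The largest other peak, chr1:59830025-59830693 in an intron 66959 bp from the start, had 9.12 and 6.01 CPM (0.60, 0.14 to 1.08). The whole locus stood at 70.2 and 59.7 CPM, with 36.1% and 31.9% of cells open.

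Tgfbr3, which encodes betaglycan, a co-receptor that presents TGF-beta ligands and binds inhibins, was the locus with the largest difference. It had 1763 counts in set 1 and 863 in set 2, or 135.1 and 87.9 CPM, and 57.3% and 44.5% of cells were open at 1 or more of its 12 peaks. The log2 ratio was 0.62 (0.50 to 0.74), and 0.53 (0.35 to 0.70) with each peak counted once per cell. At equal depth, with each cell drawn to 4899 counts, 41.3% (37.7 to 44.9) of set 1 cells and 30.9% (27.1 to 34.9) of set 2 cells were open, so these intervals did not overlap. The ratio of CPM at equal depth was 0.43, so both alternatives put the locus under 1.5-fold.

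The difference at Tgfbr3 spread over the gene. The intronic peak chr5:107200065-107202109 had 390 counts in set 1 and 172 in set 2, or 29.9 and 17.5 CPM (0.77, 0.51 to 1.04), open in 19.8% and 11.9% of cells. A second intronic peak, chr5:107236541-107238311, had 16.5 and 10.5 CPM (0.65, 0.31 to 1.00). These are the regions whose sequences are printed above, and at equal depth their ratios were 0.44 and 0.30, within 1.5-fold. With each cell counted once, the second was 0.45 (-0.07 to 0.98). Farther into the gene, chr5:107120730-107121712 had 200 and 66 counts (1.19, 0.78 to 1.61) and chr5:107148053-107148751 had 104 and 40 counts (0.97, 0.43 to 1.53), and both overlap coding exons. Near the promoter, the small intronic peaks chr5:107282346-107282746 and chr5:107287151-107287622 had 53 and 7 counts and 54 and 16 counts. The intronic peak chr5:107224793-107225267 went against the rest, with 49 counts in set 1 and 75 in set 2 (-1.02, -1.57 to -0.49), open in 2.93% and 5.97% of cells. The promoter peak itself (chr5:107288342-107289923) had 35.1 and 25.3 CPM (0.47, 0.25 to 0.70) and was within 1.5-fold. With each cell counted once its ratio was 0.33 and the interval held 0 (-0.02 to 0.69), and at equal depth it was 0.21. It was open in 22.4% (19.6 to 25.4) and 17.0% (14.1 to 20.1) of all cells, and in 12.3% and 10.5% at equal depth.

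**Figure D3:**
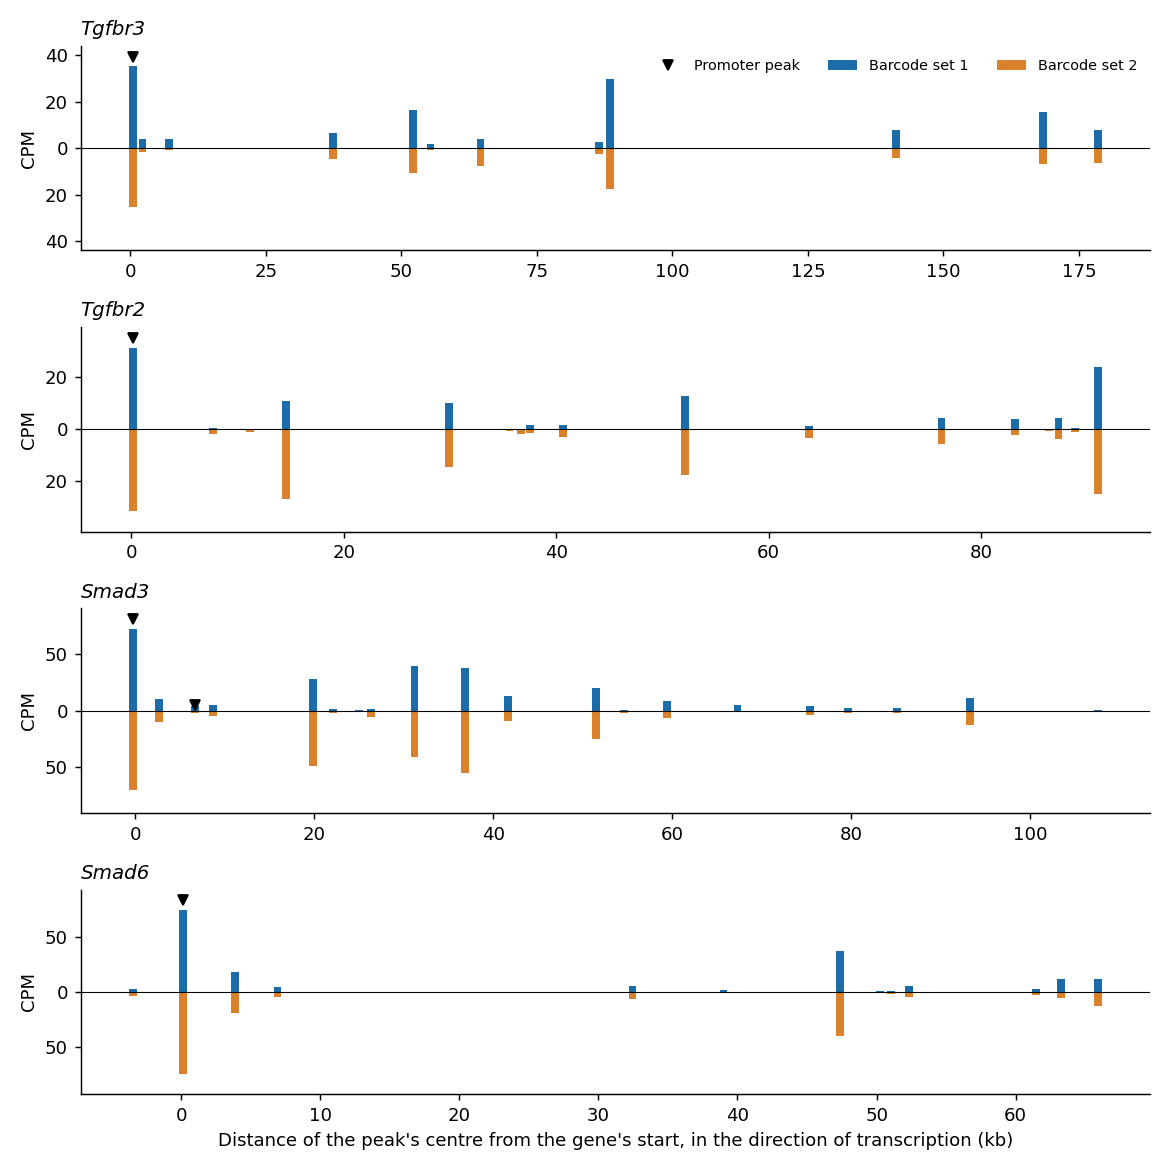
Accessibility of every peak along Tgfbr3, Tgfbr2, Smad3 and Smad6, in CPM, with set 1 drawn upward (blue) and set 2 downward (orange), against the distance of the peak's centre from the gene's start in kb; black triangles mark promoter peaks. At Tgfbr3 the upward bars were longer along nearly the whole gene, and at Smad3 the downward bars near 20 and 37 kb were longer (48.8 against 28.3 CPM for the first) although the promoter was even.

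Eng encodes endoglin, a co-receptor of the BMP branch that also marks HSCs and endothelial cells. It was the least accessible of the 10 loci, with 39.3 CPM in set 1 and 38.8 CPM in set 2 (0.02, -0.18 to 0.21), and 24.3% and 22.2% of cells open. Its promoter peak (chr2:32645816-32647829), which contains the printed Eng sequence, had 23.6 and 18.5 CPM (0.35, 0.08 to 0.62). With each cell counted once the interval held 0 (0.35, -0.07 to 0.78), and at equal depth the ratio was -0.03 with 8.14% and 7.86% of cells open. The largest other peak, chr2:32654510-32656323 in an intron, had 11.6 and 14.7 CPM (-0.33, -0.67 to 0.01). No Eng peak was past 1.5-fold.

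Smad1, the receptor-activated SMAD of the BMP branch, was even as a whole over all cells, at 126.7 CPM in set 1 and 127.8 CPM in set 2 (-0.01, -0.12 to 0.09). At equal depth the ratio of the Smad1 locus was -0.16. Its promoter peak (chr8:79397737-79399994) had 32.1 and 33.4 CPM (-0.06, -0.27 to 0.16). Its largest other peak, chr8:79374363-79376215 in an intron, had 29.3 and 22.3 CPM (0.40, 0.15 to 0.64), but its interval held 0 with each cell counted once (0.22, -0.16 to 0.60). The intronic peak chr8:79362192-79362929 had 63 counts in set 1 and 84 in set 2 (-0.83, -1.32 to -0.34), and chr8:79368705-79369606, also intronic, had 56 and 24 (0.81, 0.10 to 1.57). With each cell counted once, the second was 0.23 (-0.81 to 1.30), from 22 and 14 open cells, within 1.5-fold and with 0 in its interval.

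Smad3, the receptor-activated SMAD of the TGF-beta branch, took the most counts of the 10 loci, 270.8 CPM in set 1 and 304.2 CPM in set 2 (-0.17, -0.24 to -0.10), over 21 peaks, and 76.5% and 75.6% of cells were open at 1 or more of them. Its promoter peak (chr9:63756695-63759757) was even, with 72.4 and 70.0 CPM (0.05, -0.09 to 0.19) and 35.8% and 36.2% of cells open. At chr9:63736900-63739369, 19860 bp inside the gene, set 1 had 369 counts and set 2 had 479, or 28.3 and 48.8 CPM (-0.79, -0.99 to -0.59), and 16.9% and 27.7% of cells were open. This is the region with the AP-1 and RUNX words printed above, and at equal depth it was open in 8.81% and 15.7% of cells, with a ratio of -1.05. The largest other peak, chr9:63719832-63722486, had 38.1 and 54.9 CPM (-0.53, -0.71 to -0.35), just within 1.5-fold. Between these 2 peaks, chr9:63726087-63727460 was even at 39.5 and 41.0 CPM (-0.05, -0.24 to 0.14), so neighbouring peaks of similar size differed in their ratio.

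Small Smad3 peaks differed more, on few counts. The intronic peak chr9:63731433-63731852 had 19 counts in set 1 and 57 in set 2 (-1.995, -2.83 to -1.22), whereas chr9:63690479-63690913 had 61 and 9 (2.35, 1.33 to 3.55). The only promoter peak past 1.5-fold, chr9:63750825-63751754 at an internal transcript start of Smad3, had 55 and 20 counts (1.05, 0.29 to 1.87). With each cell counted once, its interval held 0 (0.76, -0.32 to 1.93).

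Smad6, the inhibitory SMAD that acts mainly on BMP signals, was even as a whole over all cells, at 176.7 CPM in set 1 and 178.0 CPM in set 2 (-0.01, -0.10 to 0.08). Its promoter peak (chr9:64020245-64023601) had 74.0 and 73.9 CPM, and its largest other peak, chr9:63973680-63975718 in an intron, had 36.9 and 40.0 CPM (-0.12, -0.31 to 0.08). The promoter ratio was -0.14 (-0.39 to 0.11) with each cell counted once and -0.22 at equal depth. The only Smad6 peak past 1.5-fold was chr9:63958117-63959530, an intronic peak with 149 counts in set 1 and 53 in set 2 (1.08, 0.62 to 1.56), open in 7.95% and 3.77% of cells. At equal depth its ratio was 0.45, with 29 and 15 cells open.

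Smad7, the inhibitory SMAD of both branches, had no peak past 1.5-fold. Its promoter peak (chr18:75366242-75372865), the widest of the 107 at 6624 bp, had 71.3 CPM in set 1 and 72.5 CPM in set 2 (-0.02, -0.17 to 0.12). Its largest other peak, chr18:75391203-75393168 in an intron, had 34.9 and 29.9 CPM (0.22, 0.01 to 0.44). The locus stood at 159.1 and 150.3 CPM (0.08, -0.01 to 0.18).

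Levels can be compared between genes only per length, so the pooled CPM was divided by the kilobases of peak. Among promoters, Tgfb1 (23.8 CPM per kb), Tgfbr1 (23.6) and Smad6 (22.0) came first, followed by Tgfbr3 (19.5) and Smad3 (18.7), then Smad1, Bmpr2 and Tgfbr2 (14.5, 14.4 and 14.1), and last Smad7 (10.8) and Eng (10.6). The 95% intervals of neighbours in this order overlapped, except those of Smad3 with Smad1 and of Tgfbr2 with Smad7. Per kb, the peaks outside promoters ran in the pooled value from Smad7 (12.4) and Smad3 (12.2) to Eng (6.42), and this order differed between the sets as well. In set 1, Smad7 was first (13.05) and Tgfb1 last (3.16), and in set 2, Smad3 (13.4) and Tgfb1 (13.1) stood above Smad7 (11.6) and Tgfbr1 was last (5.64).

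The share of cells open at a promoter peak, averaged over the 11 peaks, was 27.1% in set 1 and 26.6% in set 2. By gene it ran in set 1 from 15.9% (13.5 to 18.6) at Eng to 47.3% (43.8 to 50.8) at Tgfb1. At Tgfbr3 and Eng the interval of each set left out the value of the other, with Tgfbr3 at 22.4% (19.6 to 25.4) in set 1 and 17.0% (14.1 to 20.1) in set 2, and Eng at 15.9% and 11.9% (9.53 to 14.7). At equal depth the Tgfbr3 shares were 12.3% (10.0 to 14.9) and 10.5% (8.12 to 13.4), and those of Eng also lay within each other's intervals. There the sets stood farthest apart at Smad6, with 22.3% (19.4 to 25.5) and 27.9% (24.2 to 31.8), and at Tgfbr1, with 22.4% (19.5 to 25.6) and 27.1% (23.5 to 31.0). The genes whose promoter shares stood apart thus changed with depth. A cell had a median of 4 of the 10 loci open in each set at equal depth (quartiles 3 and 5), and a median of 2 of the 10 promoters. The 6 genes of other tissues listed as closed in blood summed to 42.4 and 40.9 CPM. Alb and Krt5 had no peak, so nothing was counted there. Ins2 had 4.06 and 3.26 CPM and Myh6 had 0.54 and 2.44 CPM. Neurod1 (13.2 and 12.9 CPM) and Sftpc (24.7 and 22.3 CPM) were open in these cells and do not serve as closed regions.

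**Figure D4:**
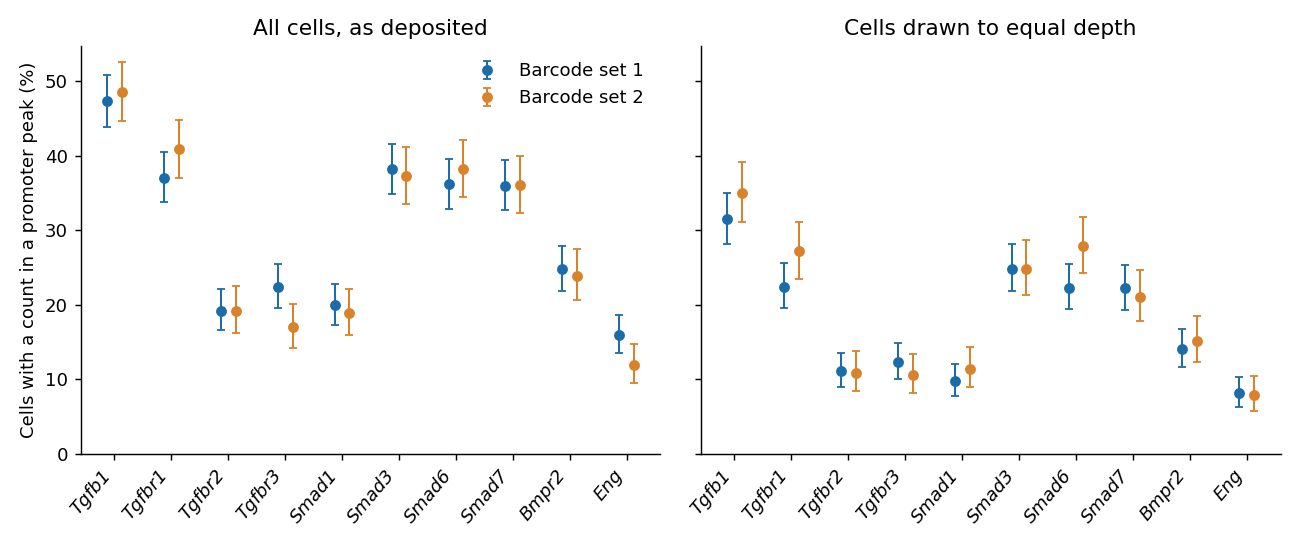
Share of cells with at least 1 count in a promoter peak of each gene, in barcode set 1 (blue) and set 2 (orange), over all cells (left) and over cells drawn to 4899 counts each (right); error bars are 95% Clopper-Pearson intervals. The Tgfbr3 points stood apart over all cells (22.4% and 17.0%) and lay within each other's intervals at equal depth.

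The other genes of the pathway were taken as lists of 90 genes by role, 89 of which were annotated and had at least 20 counts. In all, 7 of the 89 loci were past 1.5-fold with set 1 higher (7.87%) and 0 with set 2 higher, against the 4.63% and 3.61% of all loci, and their median log2 ratio was 0.04. The 7 were the ligands Gdf3, Inha and Bmp4, the receptors Neo1 and Amhr2, the follistatin-like inhibitor Fstl1 and the BMP target Id1. Among ligands and their activators it was 3 of 22, among receptors and co-receptors 2 of 13, among inhibitors 1 of 17 and among target genes 1 of 18. It was 0 of 10 for SMADs and their nuclear partners and 0 of 10 for the kinases, adaptors and other proteins of the SMAD-independent branch.

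The largest ratio was at Gdf3, a TGF-beta family ligand, with 14.8 CPM in set 1 and 4.28 CPM in set 2 (1.79, 1.30 to 2.31). Inha, the inhibin alpha subunit, had 25.5 and 13.3 CPM (0.94, 0.64 to 1.24), and Neo1, a receptor that also works with the BMP co-receptors of the RGM family, had 60.6 and 33.7 CPM (0.85, 0.66 to 1.04). At the other end, Smad9, a receptor-activated SMAD of the BMP branch, had 16.0 and 23.5 CPM (-0.55, -0.83 to -0.28). Tab2, an adaptor of the kinase TAK1, had 38.6 and 53.5 CPM (-0.47, -0.65 to -0.29), and Chrd, the BMP antagonist chordin, had 11.2 and 14.8 CPM (-0.40, -0.74 to -0.06). Smad4, the shared partner of all receptor-activated SMADs, was even at 46.8 and 46.1 CPM (0.02, -0.16 to 0.20), and Id1, the textbook BMP target, had 39.8 and 26.1 CPM (0.61, 0.39 to 0.83).

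**Figure D5:**
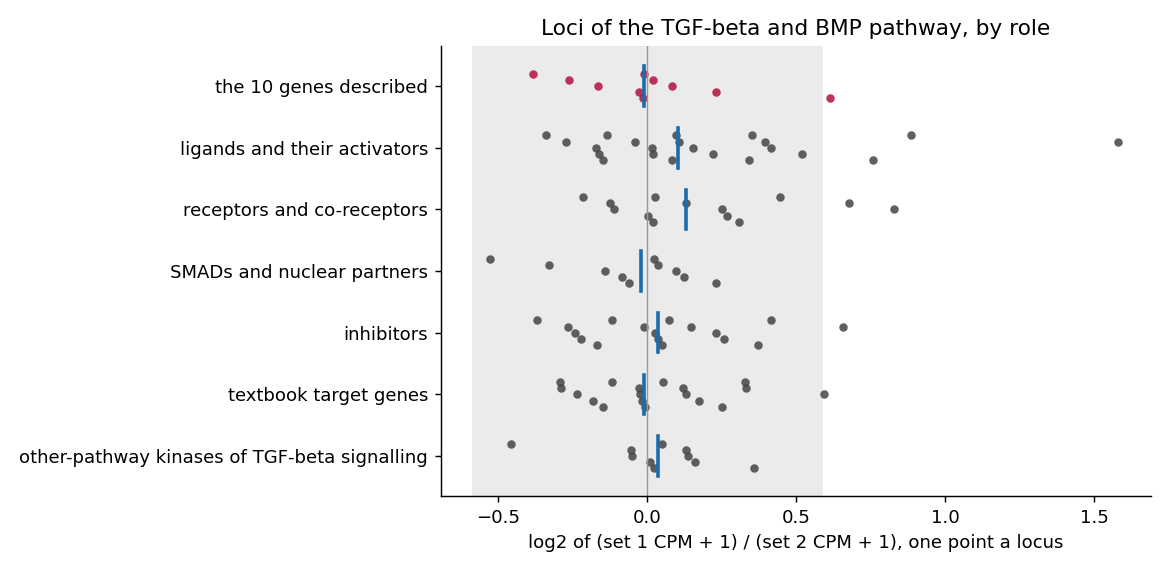
log2 ratio of set 1 over set 2, with a pseudocount of 1 CPM, for the loci of the 10 genes (red) and of the pathway lists by role (grey points, 1 per gene); blue lines are medians and the grey band spans 1.5-fold in either direction. All list medians lay between -0.02 (SMADs and nuclear partners) and 0.13 (receptors and co-receptors), and the points past the band were all on the set 1 side.

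Markers of stem and progenitor cells moved between the sets as well. The stem cell list was open in both sets, and its 10 loci with peaks summed to 1268 CPM in set 1 and 1138 CPM in set 2 (log2 0.16). Ly6a had no peak. Lists of other cell types, given below, were open in both sets as well, so this sum does not bear on the label LT-HSC. Slamf1 had 64.7 and 35.2 CPM (0.88, 0.70 to 1.06) and Procr had 11.9 and 6.92 CPM (0.78, 0.36 to 1.21), both past 1.5-fold with set 1 higher. The progenitor list of Flt3, Cd34 and Cd48 summed to 111.8 and 203.3 CPM (-0.86), and 2 of its 3 genes, Flt3 and Cd34, were past 1.5-fold with set 2 higher. The megakaryocyte list stood at 384.3 and 325.8 CPM (0.24) and the erythroid list at 88.0 and 72.3 CPM (0.28, Car1 without a peak). The myeloid list stood at 115.2 and 129.8 CPM (-0.17), with Ctsg and Ly6g without a peak and Fcgr3 with 0 counts in a peak of 10 bp. The B cell list stood at 188.0 and 170.4 CPM (0.14) and the T cell list at 135.4 and 140.1 CPM (-0.05, Cd3e and Cd8a without a peak). Nothing was counted where no peak was called, so such a gene was not measured as closed. The endothelial list stood at 351.3 and 336.2 CPM (0.06) and the stromal list at 390.8 and 437.8 CPM (-0.16). The part of these marker differences in the values of Tgfbr3, Tgfbr2 and Smad3 was not tested.

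The 5000 bp window decided which upstream peaks were counted. Just inside it lay the Tgfb1 peak described above, the Smad6 peak chr9:64025081-64025953 (30 and 38 counts) and the Smad7 peak chr18:75362904-75363840 (92 and 46). Just outside it, the nearest upstream peaks of Tgfb1 (chr7:25679987-25681710, 1215 and 998 counts) and Smad1 (chr8:79405102-79405634, 79 and 28 counts) lay 5292 and 5584 bp from the gene. The nearest peak upstream of Eng, chr2:32637385-32638547 at 8048 bp, had 615 and 331 counts, more than the Eng promoter, and 47.1 and 33.7 CPM (0.48, 0.29 to 0.68). Upstream of Smad6, the peak chr9:64045036-64045694 at 22977 bp had 124 and 9 counts (3.37, 2.40 to 4.54). Neither of these is in the locus sums.

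Most of the promoter peaks were GC-rich. The central 300 bases of the 11 promoter peaks had a median GC content of 68.3%, against 61.7% over all 16788 promoter peaks, and 7 of 11 held GGCGCC, against 20.8% of all promoter peaks. The internal Smad3 promoter peak (47.7%) and the Smad7 promoter peak (54%) were below the median of all promoter peaks. The palindromic SMAD word GTCTAGAC was in 1 of 11, at Smad6, against 0.25%. In the central 300 bases of the 77 other peaks, the PU.1 word GAGGAAGT was in 10 (12.99%, against 7.85% of all 63505 other peaks), the RUNX word TGTGGTT in 11 (14.3% against 12.99%), the AP-1 word TGANTCA in 10 (12.99% against 13.2%), the GATA word AGATAAG in 6 (7.79% against 5.17%), and the TEAD word CATTCCA in 1 (1.30% against 4.47%). The ETS word CCGGAAGT and the SP and KLF word GGGGCGGGG were each in 2 (2.60%, against 0.65% and 1.83%), and neither SMAD word was in any. A match says only that these letters lie in the window.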

How the data were processed

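Single-cell ATAC-Seq was measured in 4 samples of LT-HSCs. Per the labels and the study's methods, the authors used the 10x Genomics assay and Cell Ranger ATAC (1.2.0, submitters' processing notes, builds mm10 and GRCm38), and deposited whole-number counts of cut sites for each peak and barcode. They name no normalization, and whether libraries were brought to equal depth is not given in the sources used here. Of 2 tables, the one without peak names was not used.

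From the deposited counts, sums per barcode suffix were scaled to 1e6 counts, and peaks were assigned with GENCODE M21 (Python 3.11.15, numpy 2.4.6, scipy 1.17.1). Peak starts count from 0 in the table and from 1 here. Each group is 1 sample, so a fold by size stood in for a test. For equal depth, cells were drawn without replacement to the 10th percentile, 4899 counts, leaving out 69 cells of set 1 and 76 of set 2. No cell was filtered otherwise, and no doublet caller was run; 57 cells had over 3 times the median count. The ratios and intervals were run on simulated independent Poisson counts with known fold changes. These lack the paired cut ends of the real counts, so they cannot show that the intervals are wide enough here.

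The genes and all lists were chosen with earlier results of these data known. Named were all 10 genes, their promoter peaks, each gene's largest other peak, peaks past 1.5-fold with at least 100 counts, and the 3 highest and 3 lowest pathway loci with at least 200 counts. Further peaks and pathway loci were named after their values were seen.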

Additional observations from a re-analysis of the deposited data

How the results depend on the processing

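No paired analysis was possible because there is a single sample in each group. The summed log2 ratio of the 10 loci, -0.03, was -0.074 with cells drawn to equal depth and stayed within its counting interval under every other alternative run (-0.05 to -0.0022). The count of peaks past 1.5-fold fell from 14 to 6 with set 1 higher, and from 9 to 4 with set 2 higher, with a pseudocount of 5 CPM, and to 6 and 5 with a minimum of 100 counts. By construction these settings shrink or leave out peaks of few counts. The mean promoter share, 27.1% and 26.6%, was 16.2% and 17.4% at equal depth, which turns the order of the sets, and 21.4% and 20.9% with promoter windows of 2500 bp. For single loci, 69 of 89 values stayed within the counting interval, and for named peaks 108 of 120; no call of a locus or peak changed sign. The Tgfbr3 locus was higher in set 1 under every alternative run but was 0.53 with each peak counted once per cell and 0.43 at equal depth, both under 1.5-fold. At equal depth the uncalled loci Bmpr2 and Eng went from 0.23 to -0.0025 and from 0.02 to -0.19. Tgfbr1 and Smad1, also uncalled, went from -0.03 to -0.17 and from -0.01 to -0.16. A size factor from peak ratios moved all ratios by 0.01. With 1 library a set, differences between libraries and between sorted groups cannot be told apart.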
